A study of Mus musculus with 96 samples.

Results

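The 9 genes followed here belong to inflammatory cytokine signalling and to feedback on the transcription factor NF-kB, and were measured in mouse spleen and blood. They were Tnf, Ltb, Il1b, Il6, Il1rn, Il1r2, Nfkbia, Tnfaip3 and Tnfaip2, chosen by name as 9 of the 16593 genes measured. Earlier results of these data were known when they were chosen. All 9 were on the array, through 13 probes. Il1rn and Tnfaip2 had 3 probes each, and for every gene the brightest probe was used. RNA of whole spleen and whole blood came from 48 male mice with collagen induced arthritis, a joint disease raised by immunisation with collagen, and was measured on 96 Illumina bead arrays. The mutated mice were of strain C57BL/10.Q/rhd.Ncf1m1J and the wild type mice of strain C57BL/10.Q/rhd, and all 48 had been immunised. Collection was at day 44 or day 15 after immunisation, and no mouse was sampled at both days. This gave 8 groups of 12 arrays: mutated spleen at day 44, wild type spleen at day 44, mutated spleen at day 15, wild type spleen at day 15, and the same 4 groups of blood. Ncf1 is the gene of p47phox, a protein that phagocytes need to assemble the oxidase that makes reactive oxygen species. The mutation is carried by the whole animal, no cells were sorted, and arrays of unimmunised mice were not used here.

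NF-kB proteins rest in the cytoplasm bound to inhibitors such as IkB-alpha, the product of Nfkbia. Receptors for tumour necrosis factor and interleukin 1 activate a kinase complex that marks the inhibitor for destruction, and NF-kB then enters the nucleus. Its target genes include cytokines and also its own brakes, Nfkbia and Tnfaip3. In the spleen, lymphotoxin and tumour necrosis factor maintain the B cell follicles, and neutrophils are a rich source of interleukin 1 beta and of its decoy receptor.

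The study was run as experiment I and experiment II, each with its own RNA isolation kits, and both gave 6 of the 12 mice of every group. Levels are log2 intensities above the median probe of the same array, so that 0 is the level of the median probe, close to background on such arrays. Levels of different genes come from different probes and are not ranked against each other. Overlap of mice between groups was counted for the 9 genes alone, so no share of all genes stands beside it. The mutated gene fitted the labels on average. Ncf1 averaged 0.06 ± 0.22 in mutated and 0.91 ± 0.28 in wild type spleen, and 0.09 ± 0.32 in mutated and 0.64 ± 0.56 in wild type blood (SD, n = 24 each). The genotypes overlapped in both tissues. Ncf1 ran from -0.35 to 0.52 in mutated and from 0.30 to 1.55 in wild type spleen. In blood it ran from -0.46 to 0.59 in mutated and from -0.29 to 1.53 in wild type mice. Against blood, all 10 neutrophil granule and precursor genes and 7 of 9 B cell genes were called higher in spleen. All 7 platelet genes, 7 of 8 T cell genes and 6 of 9 mature neutrophil genes were called lower there. In that comparison 88.6% of all genes were called, so these counts do not by themselves identify the tissues. There were 6 spleen arrays, 2 of mutated and 4 of wild type mice, with a mean over exocrine pancreas genes more than 1 log2 unit above the median spleen array. The same list was high on some blood arrays too. Its highest level was 3.59 in wild type blood at day 15, with a median of 0.23. In mutated blood at day 44 it was 2.85, with a median of 0.35. Blood arrays were not screened by this rule. Differences are log2 differences ± standard error from limma, and a gene is called where its adjusted p, by Benjamini-Hochberg over the 16593 genes tested, lies under 0.05.

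In mutated spleen over both days, 4 of the 9 genes changed. Il1r2, the decoy receptor that binds interleukin 1 without signalling, and Tnfaip2, a gene first found as induced by tumour necrosis factor in endothelial cells, were higher. Nfkbia and Ltb, the membrane-bound chain of lymphotoxin, were lower. The cytokines Tnf, Il1b and Il6 did not pass. Limma called 10.5% of all genes in this comparison. The promoter windows of these 4 genes are shown as sequence. They run from 250 bases before to 50 after the start of the gene (RefSeq, GRCm38.p6), and capitals mark a match to the kappaB consensus, 3 G, a purine, any base, A or T, 2 pyrimidines and 2 C, read on both strands. Nfkbia lies at chr12:55492598-55492897, minus strand. Ltb lies at chr17:35194257-35194556, plus strand. Il1r2 lies at chr1:40085843-40086142, plus strand. Tnfaip2 lies at chr12:111442411-111442710, plus strand.
Nfkbia: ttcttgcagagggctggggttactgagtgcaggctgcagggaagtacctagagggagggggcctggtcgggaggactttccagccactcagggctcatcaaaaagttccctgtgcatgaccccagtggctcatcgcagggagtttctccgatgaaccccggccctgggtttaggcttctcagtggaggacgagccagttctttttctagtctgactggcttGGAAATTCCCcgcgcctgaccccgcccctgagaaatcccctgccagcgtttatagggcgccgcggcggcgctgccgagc
Ltb: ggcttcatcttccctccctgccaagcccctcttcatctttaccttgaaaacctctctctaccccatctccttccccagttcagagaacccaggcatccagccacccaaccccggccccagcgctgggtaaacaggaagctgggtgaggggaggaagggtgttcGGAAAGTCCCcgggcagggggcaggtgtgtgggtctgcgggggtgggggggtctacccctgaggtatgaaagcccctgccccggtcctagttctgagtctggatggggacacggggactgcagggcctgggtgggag
Il1r2: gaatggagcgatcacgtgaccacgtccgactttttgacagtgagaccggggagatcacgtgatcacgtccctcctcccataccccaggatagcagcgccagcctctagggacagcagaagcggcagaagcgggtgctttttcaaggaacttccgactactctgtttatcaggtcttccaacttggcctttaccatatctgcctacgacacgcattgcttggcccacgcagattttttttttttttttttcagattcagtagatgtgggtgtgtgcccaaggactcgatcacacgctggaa
Tnfaip2: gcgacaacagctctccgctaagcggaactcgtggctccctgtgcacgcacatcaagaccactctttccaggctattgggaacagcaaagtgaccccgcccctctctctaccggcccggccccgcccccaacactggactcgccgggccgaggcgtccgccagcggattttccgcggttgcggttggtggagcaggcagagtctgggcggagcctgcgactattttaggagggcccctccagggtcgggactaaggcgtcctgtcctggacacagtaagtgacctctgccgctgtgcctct
The windows of Nfkbia and Ltb hold 1 match each, which begins 29 bases before the start in Nfkbia and 87 bases before it in Ltb. The windows of Il1r2 and Tnfaip2 hold no match. Of all 9 genes, 4 had a match in a window, the other two being Il6, 44 bases before the start, and Tnfaip3, with matches 125 and 12 bases before it. Of all 27025 genes with a window, 5.14% had a match in a window. Of all 32851 windows, 4.51% hold a match, and 0.554% hold 2 or more. Il6 and Tnfaip3 were not called in this comparison. A match is a run of letters and not a measured site, and whether matches go with the direction of a change was not tested.

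The decoy receptor gene Il1r2 had the smallest p of the 9 genes in spleen over both days, the 15th of all genes. At day 44 its level in mutated spleen was 0.23 at the lowest, 0.60 at the median and 0.89 at the highest, against -0.24, -0.05 and 0.15 in wild type spleen. All 12 mutated mice lay above the highest wild type mouse at that day, which was not counted for other genes. At day 15 the level was 0.02, 0.21 and 0.73 in mutated spleen, against -0.27, 0.00 and 0.12 in wild type spleen. The groups overlapped at day 15, where 7 of 12 mutated mice lay above the highest wild type mouse. The difference was 0.43 ± 0.05 over both days (1.35-fold, limma adjusted p = 2.69e-08, n = 24 each), 0.56 ± 0.07 at day 44 (adjusted p = 2.95e-07) and 0.30 ± 0.07 at day 15 (adjusted p = 0.0135). At day 15 it came from experiment I, with 0.52 ± 0.10, against 0.08 ± 0.08 in experiment II (adjusted p = 0.945). At day 44 the difference was 0.61 ± 0.10 in experiment I, next to 0.52 ± 0.08 in experiment II, both called. In wild type spleen 14 of 24 mice had a level below the median probe, so background limits the size of these folds.

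Tnfaip2 was the gene with the 4th smallest p of all genes in mutated spleen at day 15. Its level at day 44 was 3.50, 3.84 and 4.28 in mutated spleen (lowest, median, highest), against 2.49, 3.13 and 3.80 in wild type spleen. At day 15 it was 3.11, 3.54 and 4.28 in mutated spleen, against 2.40, 2.97 and 3.50 in wild type spleen. All 12 mutated mice of each day lay above the wild type median. Within experiment I and within experiment II the groups at day 44 did not overlap, which was not counted for other genes. The difference was 0.60 ± 0.08 over both days (1.52-fold, limma adjusted p = 4.01e-07), 0.60 ± 0.11 at day 44 (adjusted p = 0.000323) and 0.61 ± 0.11 at day 15 (adjusted p = 0.00635). Experiment I alone did not pass at day 44 (0.47 ± 0.15, adjusted p = 0.302), nor experiment II alone at day 15 (0.48 ± 0.14, adjusted p = 0.619). The dimmer probes of Tnfaip2 were also higher over both days, by 0.41 ± 0.08 and 0.49 ± 0.08 (adjusted p = 0.000496 and 9.81e-06). At day 44 the first of them did not pass (0.33 ± 0.12, adjusted p = 0.127) and the second did (0.41 ± 0.11, adjusted p = 0.0144). Both passed at day 15 (0.50 ± 0.12 and 0.56 ± 0.11, adjusted p = 0.0188 and 0.0066).

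Nfkbia was lower in mutated spleen over both days. At day 44 its level was 3.48, 3.86 and 4.25 in mutated spleen (lowest, median, highest), against 3.81, 4.24 and 4.85 in wild type spleen. At day 15 it was 3.53, 4.20 and 4.64 in mutated spleen, against 3.94, 4.59 and 5.002 in wild type spleen. The groups overlapped at both days, with 1 of 12 mutated mice above the wild type median each time. The difference was -0.39 ± 0.09 over both days (1.31-fold lower, limma adjusted p = 0.00308). It did not pass at day 44 (-0.36 ± 0.13, adjusted p = 0.12, 95% interval -0.63 to -0.09) or at day 15 (-0.42 ± 0.13, adjusted p = 0.0869, interval -0.68 to -0.15). At day 44 experiment II alone passed, with -0.57 ± 0.14 (adjusted p = 0.0163), against -0.15 ± 0.18 in experiment I (adjusted p = 0.972). Over both days experiment I alone did not pass (-0.34 ± 0.13, adjusted p = 0.186).

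Ltb, which with lymphotoxin alpha forms the ligand of the lymphotoxin beta receptor, was 3.42, 4.52 and 5.25 at day 44 in mutated spleen (lowest, median, highest), against 4.05, 5.21 and 6.17 in wild type spleen. At day 15 it was 3.07, 4.82 and 5.50 in mutated spleen, against 3.62, 5.14 and 5.96 in wild type spleen. The experiments stood far apart for this gene, with a mean level of 4.27 in experiment I, next to 5.38 in experiment II, and within experiment II the groups at day 44 did not overlap. The difference over both days was -0.52 ± 0.13 (1.44-fold lower, limma adjusted p = 0.00579). It was -0.51 ± 0.23 in experiment I (adjusted p = 0.301) and -0.54 ± 0.13 in experiment II (adjusted p = 0.0138). Without the experiment as a term of the model it did not pass (adjusted p = 0.169). It did not pass at day 44 (-0.59 ± 0.19, adjusted p = 0.0602) or at day 15 (-0.46 ± 0.19, adjusted p = 0.257) alone.

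**Figure D1:**
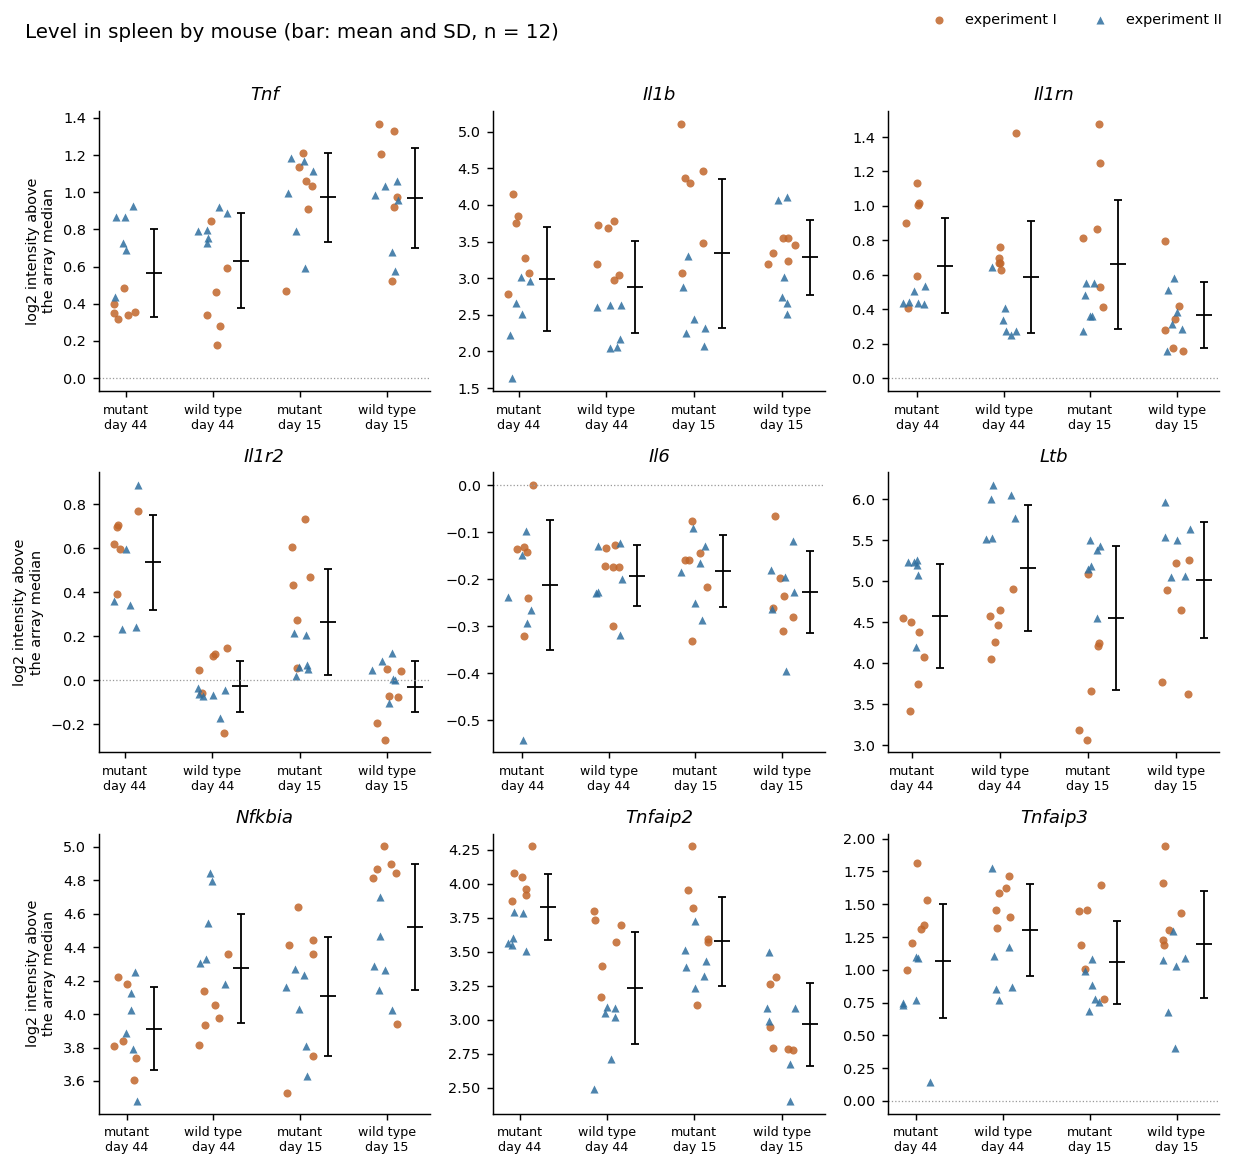
Level of the 9 genes in spleen, as log2 intensity above the array median, by mouse in the 4 groups, with circles for experiment I, triangles for experiment II and a bar for the mean and SD of 12 mice. The 12 mutated mice of day 44 all lie above the 12 wild type mice for Il1r2, and Il6 lies at or below the median probe on all 48 arrays.

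The other 5 genes did not pass in mutated spleen over both days. Tnf differed by -0.03 ± 0.07 (limma adjusted p = 0.878, 95% interval -0.17 to 0.11). Il1b, the inflammatory form of interleukin 1 most made by myeloid cells, differed by 0.08 ± 0.16 (adjusted p = 0.855, interval -0.23 to 0.39). Its sign was not the same in both experiments at day 15, where it was 0.74 ± 0.27 in experiment I, next to -0.64 ± 0.28 in experiment II, neither called. Il6 differed by 0.01 ± 0.03 (interval -0.04 to 0.07), but it lay below the median probe on 48 of 48 spleen arrays and on 40 of 48 blood arrays, so a difference in Il6 was not detectable with this probe. Il1rn, the antagonist that blocks the interleukin 1 receptor, differed by 0.18 ± 0.07 (adjusted p = 0.105, interval 0.04 to 0.32), and passed when the 6 arrays with pancreas transcripts were left out (0.22 ± 0.07, adjusted p = 0.0381). These values rest on its brightest probe. The dimmer probes of Il1rn differed by 0.02 ± 0.03 and 0.04 ± 0.03 (adjusted p = 0.794 and 0.57). Each lay below the median probe on 48 of 48 spleen arrays. Tnfaip3, which encodes the ubiquitin-editing enzyme A20 that shuts down signalling to NF-kB, differed by -0.19 ± 0.08 (adjusted p = 0.149, interval -0.35 to -0.02). Its window, at chr10:19015361-19015660, minus strand, is shown because it alone among the 9 genes holds 2 matches to the consensus, again in capitals.
Tnfaip3: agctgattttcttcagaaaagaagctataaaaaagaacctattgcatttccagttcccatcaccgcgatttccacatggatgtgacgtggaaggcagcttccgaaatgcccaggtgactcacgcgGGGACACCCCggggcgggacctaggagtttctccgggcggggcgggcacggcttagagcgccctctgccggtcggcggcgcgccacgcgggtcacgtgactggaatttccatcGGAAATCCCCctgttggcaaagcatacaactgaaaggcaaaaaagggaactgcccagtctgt

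At the single days 2 of the 9 genes passed in mutated spleen, Il1r2 and Tnfaip2 each time, beside 5.19% of all genes at day 44 and 2.47% at day 15. Whether the effect of genotype differed between day 44 and day 15 was tested by the interaction. None of the 9 genes passed in limma, and 0% of all genes did, with 363 genes at an unadjusted p under 0.05. Il1r2 had the smallest p of the 9, with a difference between the days of 0.27 ± 0.10 (p = 0.009, adjusted p = 1, 95% interval 0.07 to 0.47).

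Marker genes of several cell types differed in mutated spleens over both days as well, where 10.5% of all genes were called. All 10 neutrophil granule and precursor genes were called higher, with a median of 1.74, as were 7 of 9 mature neutrophil genes, with a median of 0.92, 7 of 8 erythroid genes, with a median of 0.98, and 6 of 7 platelet and megakaryocyte genes. All 8 T cell genes were called lower, with a median of -0.60, and 7 of 9 B cell genes, with a median of -0.41. Of 6 monocyte and macrophage genes 1 was called higher and 0 lower, with a median of -0.07. Of 10 dendritic cell genes 1 was called higher and 1 lower, with a median of -0.01. Of 14 exocrine pancreas genes 0 were called, with a median of -0.55. At day 44 the mean level of the T cell list was 2.17, 2.55 and 2.76 in mutated spleen (lowest, median, highest), against 2.69, 3.29 and 3.75 in wild type spleen. That of the mature neutrophil list was 2.82, 3.11 and 3.42, against 1.84, 2.25 and 2.91. For comparison, the median difference of all genes was -0.01. In such whole tissue samples fewer cells of a type and less RNA per cell cannot be told apart, and the part of these lists in the differences of the 9 genes was not tested.

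**Figure D2:**
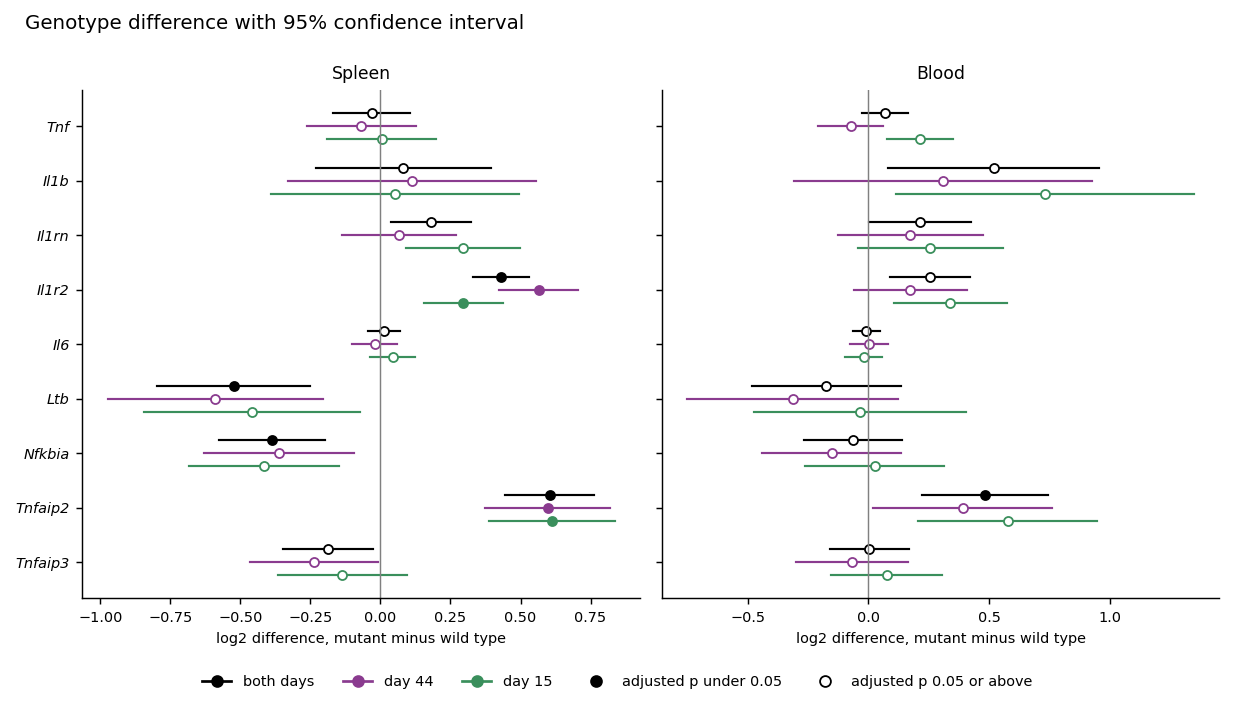
Log2 difference of mutated minus wild type mice with its 95% confidence interval for the 9 genes in spleen and in blood, over both days, at day 44 and at day 15. Filled points have an adjusted p under 0.05, which holds for Il1r2, Ltb, Nfkbia and Tnfaip2 in spleen and for Tnfaip2 in blood.

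With days compared over both genotypes, 3 of the 9 genes changed in spleen at day 44 against day 15, beside 22.9% of all genes. Tnf was lower at day 44, the 51st smallest p of all genes. Its level was 0.32, 0.46 and 0.93 in mutated (lowest, median, highest) and 0.18, 0.74 and 0.92 in wild type spleen at day 44, against 0.47, 1.05 and 1.21 in mutated and 0.52, 0.98 and 1.37 in wild type spleen at day 15. The days overlapped in both genotypes. The difference was -0.37 ± 0.07 (1.29-fold lower, limma adjusted p = 0.000612). It was -0.60 ± 0.09 in experiment I (adjusted p = 0.000397) and -0.15 ± 0.07 in experiment II (adjusted p = 0.612). Over the same contrast 8 of 9 B cell genes were called lower, with a median of -0.55, and 5 of 8 T cell genes, and their part in the fall of Tnf was not tested.

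Tnfaip2 and Il1r2 were higher in spleen at day 44, by 0.26 ± 0.08 (limma adjusted p = 0.0138) and 0.14 ± 0.05 (adjusted p = 0.0374). For Tnfaip2 experiment I gave 0.44 ± 0.11 (adjusted p = 0.00343) and experiment II 0.08 ± 0.10 (adjusted p = 0.911), and Il1r2 passed in neither experiment (0.15 ± 0.07 and 0.12 ± 0.06). Neither gene passed without the 6 arrays with pancreas transcripts (0.21 ± 0.09, adjusted p = 0.129, and 0.09 ± 0.05, adjusted p = 0.258). The dimmer probes of Tnfaip2 had the other sign (-0.05 ± 0.08 and -0.07 ± 0.08), so its probes disagree on the day although they agree in sign on the genotype. Il1b (-0.38 ± 0.16, adjusted p = 0.0728, 95% interval -0.69 to -0.06) and Nfkbia (-0.22 ± 0.09, adjusted p = 0.0851, interval -0.41 to -0.03) missed the threshold. Nfkbia differed by -0.49 ± 0.13 in experiment I (adjusted p = 0.00677) and by 0.05 ± 0.10 in experiment II. The other 4 genes differed by 0.00 to 0.11 and did not pass.

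In mutated blood over both days, 1 of the 9 genes was called, beside 1.13% of all genes. This was Tnfaip2, the last of the 188 genes called. At day 44 its level was 1.42, 2.34 and 3.10 in mutated blood (lowest, median, highest), against 0.74, 1.92 and 2.57 in wild type blood. At day 15 it was 2.06, 2.39 and 3.50 in mutated blood, against 1.27, 1.97 and 2.46 in wild type blood. The groups overlapped at both days. The difference was 0.48 ± 0.13 (1.40-fold, limma adjusted p = 0.0497). It was 0.79 ± 0.22 in experiment I, next to 0.18 ± 0.10 in experiment II, neither called, and the dimmer probes did not pass (0.34 ± 0.11 and 0.34 ± 0.10, adjusted p = 0.15 and 0.113).

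Of the interleukin 1 genes among the 9, none passed in mutated blood over both days. Il1b differed by 0.52 ± 0.22 (limma adjusted p = 0.395, 95% interval 0.08 to 0.96), Il1r2 by 0.26 ± 0.08 (adjusted p = 0.143, interval 0.09 to 0.42) and Il1rn by 0.22 ± 0.11 (adjusted p = 0.546, interval 0.00 to 0.43). These values came mostly from experiment I, with 0.99 ± 0.36 for Il1b, 0.42 ± 0.14 for Il1r2 and 0.46 ± 0.17 for Il1rn, while experiment II gave 0.05 ± 0.16, 0.09 ± 0.07 and, with the other sign, -0.03 ± 0.08. Of 17 other interleukin 1 genes 0 were called in mutated blood, with a median of 0.04. At day 15 Il1b was 3.81, 4.71 and 6.35 in mutated blood (lowest, median, highest), against 2.19, 4.12 and 5.57 in wild type blood, and the groups overlapped. In mutated blood 4 of 9 mature neutrophil genes were called higher, with a median of 0.60, and 5 of 10 granule and precursor genes, and their part in these values was not tested. Nfkbia (-0.06 ± 0.10, interval -0.27 to 0.14) and Ltb (-0.17 ± 0.15, interval -0.48 to 0.14), called lower in mutated spleen, did not pass in blood, and Tnf, Tnfaip3 and Il6 differed by -0.01 to 0.07.

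At the single days none of the 9 genes passed in mutated blood in limma, beside 1.43% of all genes at day 44 and 0.145% at day 15. At an unadjusted p under 0.05 there was 1 of the 9 genes at day 44, Tnfaip2, and 4 at day 15, Tnf, Tnfaip2, Il1r2 and Il1b, beside 10.9% of all genes at day 44 and 5.69% at day 15. Tnf, the cytokine that gives the family its name, had the smallest p at day 15. Its level was -0.05, 0.33 and 0.64 in mutated blood (lowest, median, highest), against -0.14, 0.03 and 0.24 in wild type blood at that day. Of the mutated mice 7 of 12 lay above the highest wild type mouse, and the levels are close to the median probe. The difference was 0.21 ± 0.07 at day 15 (adjusted p = 0.362, 95% interval 0.08 to 0.35), and -0.07 ± 0.07 at day 44. The test of the difference between the days gave -0.29 ± 0.09 for Tnf (p = 0.0041, adjusted p = 0.393), beside 0.00603% of all genes called, which is 1 gene. In experiment II alone Tnf passed both tests, at day 15 (0.25 ± 0.07, adjusted p = 0.0458) and for the difference between the days (-0.37 ± 0.10, adjusted p = 0.0247), where 2.68% and 4.16% of all genes did. Between day 44 and day 15 none of the 9 genes passed in blood, with 0.0783% of all genes called, and the smallest p were those of Tnfaip3 (0.18 ± 0.08, p = 0.028, adjusted p = 0.451) and Tnfaip2 (-0.27 ± 0.13, p = 0.043, adjusted p = 0.505).

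**Figure D3:**
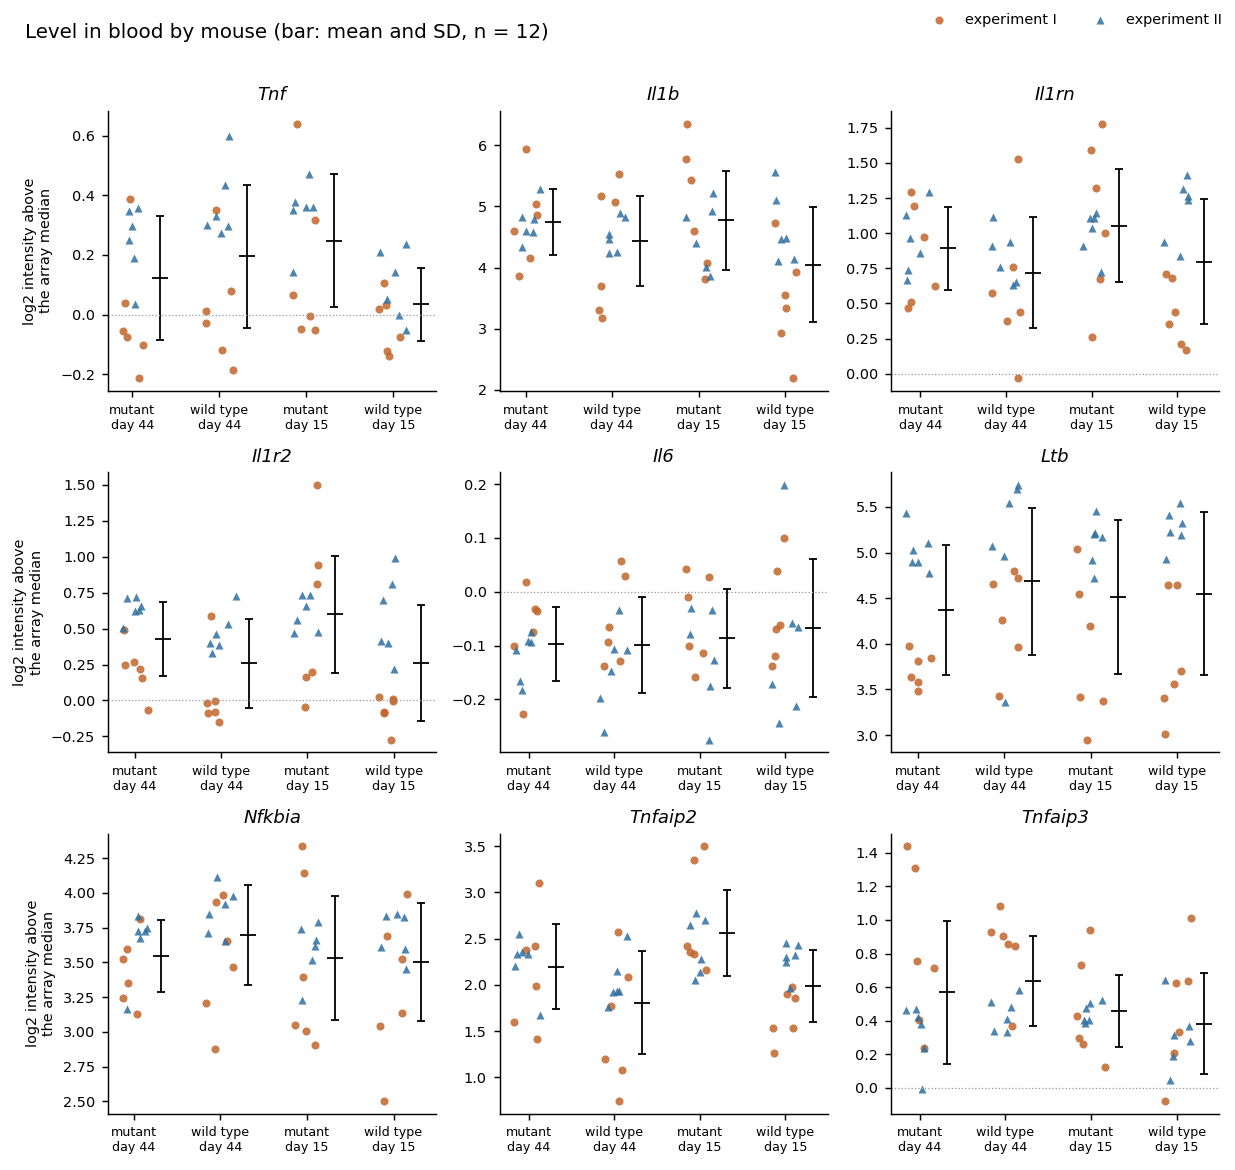
Level of the 9 genes in blood, as log2 intensity above the array median, by mouse in the 4 groups, with circles for experiment I, triangles for experiment II and a bar for the mean and SD of 12 mice. The genotypes overlap for every gene, and for Ltb the mice of experiment II lie mostly above those of experiment I.

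Spleen was compared with blood of the same mouse, and all 9 genes passed, where 88.6% of all genes did. For Il6 both tissues lay near background, below the median probe on 48 of 48 spleen and 40 of 48 blood arrays, so its difference (-0.12 ± 0.02) is between levels that this probe does not resolve. A call here therefore sets the 9 genes apart from few others, and the sizes are the data. Tnfaip2 was higher in spleen than in blood in 48 of 48 mice (1.27 ± 0.07, 2.41-fold), Tnfaip3 in 46 (0.64 ± 0.06), Tnf in 45 (0.63 ± 0.04) and Nfkbia in 44 (0.63 ± 0.07). Ltb was higher in 30 of 48 mice (0.29 ± 0.11, limma adjusted p = 0.0147). Il1b was lower in spleen than in blood in 43 of 48 mice (-1.37 ± 0.09, 2.59-fold lower), as were Il1rn in 38 (-0.30 ± 0.05) and Il1r2 in 31 (-0.20 ± 0.04). The tissues had been normalised separately. With both tissues quantile normalised together, 6 of the 9 genes passed, where 68.4% of all genes did, and Il1b (-1.88 ± 0.09), Il1rn (-0.67 ± 0.05), Il1r2 (-0.38 ± 0.05), Tnfaip2 (0.63 ± 0.07), Tnf (0.40 ± 0.04) and Tnfaip3 (0.25 ± 0.06) kept their sign. Nfkbia (0.09 ± 0.07, adjusted p = 0.272) and Il6 (-0.05 ± 0.02, adjusted p = 0.0501) did not pass, and Ltb took the other sign (-0.09 ± 0.11, adjusted p = 0.479). The experiments differed in size. For Il1b the difference was -0.78 ± 0.17 in experiment I, next to -1.97 ± 0.07 in experiment II, and for Tnfaip2 it was 1.55 ± 0.10, next to 0.98 ± 0.08. In experiment I alone the difference was -0.02 ± 0.08 for Il1rn and 0.05 ± 0.07 for Il1r2, against -0.58 ± 0.04 and -0.45 ± 0.04 in experiment II.

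The effect of genotype did not differ between spleen and blood for any of the 9 genes at the threshold, where limma called 4.11% of all genes. Of the 9 genes 3 had an unadjusted p under 0.05, as had 13.2% of all genes. Il1b differed by 0.08 in spleen and 0.52 in blood, a difference of -0.44 ± 0.19 (p = 0.024, adjusted p = 0.253). Nfkbia differed by -0.39 in spleen and -0.06 in blood, a difference of -0.33 ± 0.14 (p = 0.029, adjusted p = 0.286). Il1r2 differed by 0.43 in spleen and 0.26 in blood, a difference of 0.17 ± 0.08 (p = 0.038, adjusted p = 0.332). For Tnfaip2, called in both tissues, the difference was 0.12 ± 0.14 (adjusted p = 0.84, 95% interval -0.16 to 0.40).

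How the 9 genes vary together was read from the 48 mice of a tissue after group means and the experiment were removed, with 100000 permutations and adjustment over the 36 pairs of a tissue. In blood 19 of 36 pairs passed by r and all 19 were positive, and 16 passed by rho. Pairs of other genes were not tested, so no share of all pairs stands beside the counts of either tissue. The strongest joined the antagonist and the decoy receptor, Il1rn and Il1r2 (r = 0.781, rho = 0.666, permutation p = 1e-05 for both, the smallest these permutations can give, adjusted p = 9e-05 and 0.00012). It was 0.761 in experiment I, next to 0.743 in experiment II, and 0.716 without the 2 mice farthest from the median. Il1b followed with Il1rn (r = 0.751, rho = 0.777, adjusted permutation p = 9e-05 and 0.00012), at 0.71 and 0.629 within the experiments, and with Tnfaip2 (r = 0.716, rho = 0.646, same p), at 0.718 and 0.528. Ltb with Nfkbia (r = 0.507, rho = 0.521, adjusted permutation p = 0.0012 and 0.00093) rested on experiment I, at 0.746, against 0.015 in experiment II.

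In spleen 6 of 36 pairs passed, 2 positive and 4 negative. Nfkbia with Tnfaip2, the genes that moved in opposite directions in mutated spleen, had r = -0.576 (rho = -0.594, permutation p = 2e-05, adjusted p = 0.00054 for both), at -0.39 and -0.573 within the experiments and -0.574 without the 2 farthest mice. In blood the same pair was positive (r = 0.533, rho = 0.572, adjusted permutation p = 0.00096 and 0.00036), at 0.479 and 0.725 within the experiments. The difference between the tissues was not tested. Il1rn with Nfkbia was negative in spleen (r = -0.546, rho = -0.58, adjusted permutation p = 0.00054), at -0.601 and -0.312. Tnf with Nfkbia (r = 0.524, rho = 0.504, adjusted permutation p = 0.0016 and 0.0032) was 0.705 in experiment I, next to -0.099 in experiment II, so it does not hold within both. Tnf with Tnfaip2 (r = -0.509), Tnfaip2 with Tnfaip3 (r = -0.409) and Il1rn with Il1r2 (r = 0.414) also passed, and kept their sign in both experiments.

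**Figure D4:**
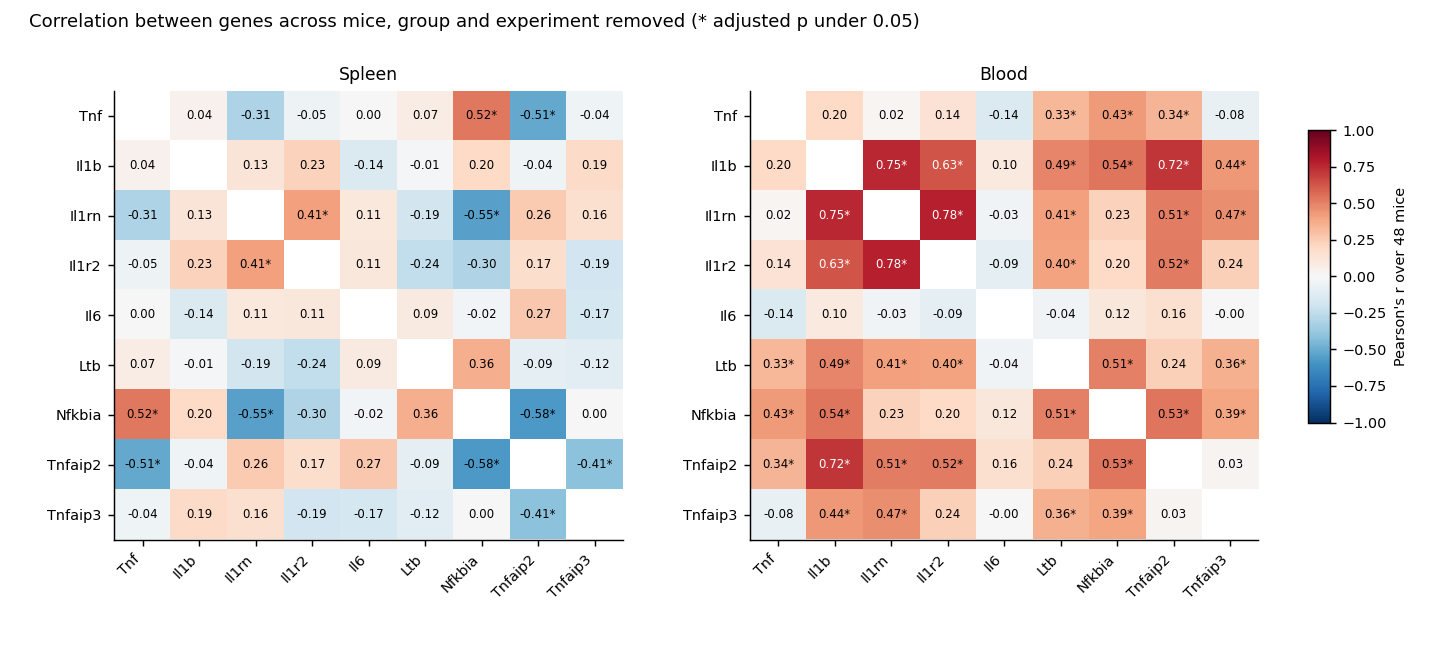
Pearson's r between the 9 genes over 48 mice in spleen and in blood after group means and the experiment were removed, with a star where the adjusted permutation p is under 0.05. Blood holds 19 starred pairs, all positive, and spleen 6, of which 4 are negative.

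For 2 of the 9 genes the level in spleen followed that in blood of the same mouse by Pearson's r, and for 3 by rho. Those that passed by both were Il1b (r = 0.536, rho = 0.454, adjusted permutation p = 0.00067 and 0.0062) and Il1rn (r = 0.533, rho = 0.456, adjusted permutation p = 0.00067 and 0.0062). Within the experiments r was 0.331 and 0.703 for Il1b and 0.458 and 0.39 for Il1rn, and without the 2 farthest mice 0.399 and 0.478. The other 7 genes had r between -0.227 and 0.323 and did not pass by r.

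Against the mean levels of 9 marker lists, 26 of 81 relations passed in spleen, all with the same sign in both experiments, and 33 of 81 in blood, but the sign agreed between the experiments in just 19 of those 33. Other genes were not tested against these lists, so no share of all genes stands beside the counts of either tissue. In spleen Nfkbia followed the B cell list most closely (r = 0.837, rho = 0.843, permutation p = 1e-05), at 0.882 and 0.605 within the experiments, and the T cell list (r = 0.704, rho = 0.711, permutation p = 1e-05), at 0.648 and 0.574. Tnfaip2 ran against the T cell list (r = -0.695, rho = -0.677, permutation p = 1e-05) and with the erythroid list (r = 0.697, rho = 0.647, permutation p = 1e-05), at 0.566 and 0.803. Il1r2 followed the mature neutrophil list (r = 0.597, rho = 0.55, permutation p = 1e-05 and 9e-05), at 0.692 and 0.378. Tnf followed the B cell list (r = 0.665, rho = 0.654, permutation p = 1e-05), at 0.704 and 0.221. Ltb passed with none of the lists in spleen. In blood the mature neutrophil list was the closest for Il1b (r = 0.871, rho = 0.808, permutation p = 1e-05), at 0.897 and 0.605, for Il1rn (r = 0.795, rho = 0.75, permutation p = 1e-05), at 0.771 and 0.648, and for Il1r2 (r = 0.77, rho = 0.756, permutation p = 1e-05), at 0.723 and 0.749. Nfkbia with the B cell list (r = 0.734, rho = 0.658, permutation p = 1e-05) was 0.854 in experiment I, next to 0.087 in experiment II.

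**Figure D5:**
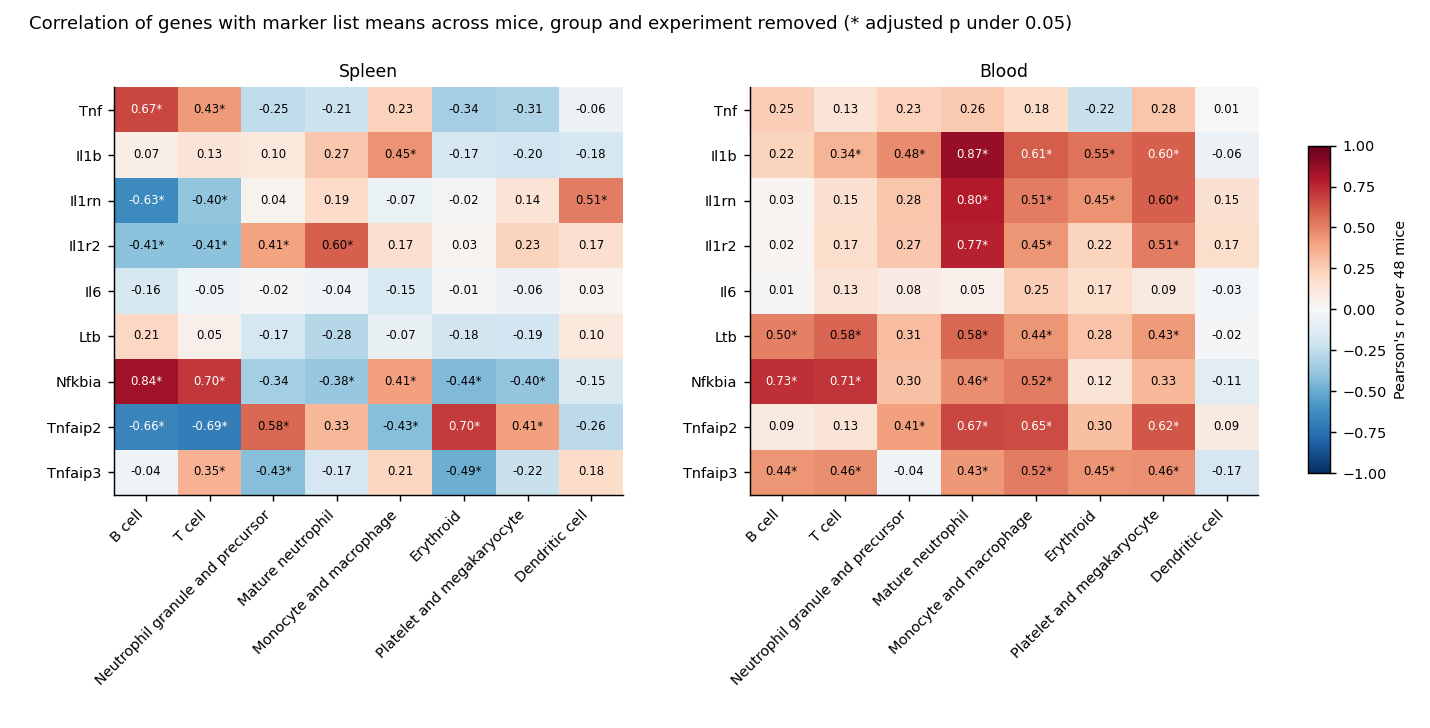
Pearson's r of the 9 genes with the mean level of 8 of the 9 marker lists (exocrine pancreas left out) over 48 mice in spleen and in blood, after group means and the experiment were removed, with a star where the adjusted permutation p is under 0.05. Nfkbia has its highest value with the B cell list in spleen (0.84), and Il1b, Il1rn and Il1r2 with the mature neutrophil list in blood (0.87, 0.80 and 0.77).

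The genes most like each of the 9 across 48 mice, by the same residuals, are given as a description. In spleen Nfkbia was closest to Rac2 (r = 0.884), Tmem115 (0.867) and Sirt2 (0.862), and Tnfaip2 to Cdc45 (0.909), Sh3tc2 (0.883) and Pla2g12a (0.854). Il1r2 was closest to Upp1 (0.719), F13a1 (0.67) and Hdc (0.647). In blood Il1b was closest to Hdc (0.849), Chil1 (0.838) and Cd300ld (0.831), Il1rn to Cxcr1 (0.854), and Il1r2 to Klra17 (0.869) and Cxcr1 (0.797). Ltb had Chmp4b and Raly among its 3 closest genes in both tissues (0.781 and 0.728 in spleen, 0.741 and 0.733 in blood).

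Of 95 measured genes in 6 lists of the surrounding pathways, 17 were called lower and 4 higher in mutated spleen over both days, where 809 of all 16593 genes were called lower and 939 higher. No test set these lists against other genes. B cell and T cell markers were lower in the same comparison, 7 of 9 and 8 of 8 of them called, and their part in these counts was not tested. Of 16 other inhibitor and feedback genes 5 fell and 0 rose, with a median of -0.15. They were led by Nfkbid (-0.46 ± 0.09, limma adjusted p = 0.000477), a nuclear IkB protein, Zfp36 (-0.34 ± 0.08, adjusted p = 0.00347), which destabilises cytokine messenger RNA, and Otulin (-0.20 ± 0.05, adjusted p = 0.00626), a deubiquitinase of linear chains. Of 13 subunits and kinases 4 fell, among them Map3k14 (-0.34 ± 0.09, adjusted p = 0.00804), the kinase of the alternative pathway, and Rel (-0.14 ± 0.04, adjusted p = 0.00494), and 1 rose, Tab3 (0.41 ± 0.08, adjusted p = 0.000187), an adaptor of the kinase TAK1. Of 17 genes of the tumour necrosis factor and lymphotoxin system 4 fell and 0 rose, with the B cell survival receptor Tnfrsf13c first (-0.56 ± 0.09, adjusted p = 3.28e-05) and Cd40 (-0.29 ± 0.08, adjusted p = 0.0103) among them.

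Of 17 interleukin 1 genes 1 fell, Sigirr (-0.27 ± 0.08, adjusted p = 0.0134), an inhibitory receptor of that family, and of 12 interleukin 6 genes 1 rose, Pim1 (0.25 ± 0.06, adjusted p = 0.00447), and 2 fell, the receptor chains Il6st (-0.17 ± 0.05) and Il6ra (-0.24 ± 0.08). Of 20 other NF-kB target genes 2 rose and 1 fell. The 2 that rose were Mmp9 (0.92 ± 0.12, adjusted p = 7.57e-07), a neutrophil gelatinase also held by the mature neutrophil list, and Saa3 (0.92 ± 0.15, adjusted p = 1.22e-05), an acute phase protein. The chemokine Ccl5, made by T cells, fell (-0.54 ± 0.14, adjusted p = 0.00517).

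In mutated blood over both days 3 of the 95 genes passed, all higher, beside 1.13% of all genes, of which 161 were higher and 27 lower. They were Socs3, the feedback inhibitor of interleukin 6 signalling (0.65 ± 0.12, limma adjusted p = 0.000726), Stat3, the transcription factor of that pathway (0.32 ± 0.07, adjusted p = 0.0162), and the adhesion molecule Icam1, an NF-kB target (0.37 ± 0.07, adjusted p = 0.00167). All 3 also passed the test of the genotype effect between spleen and blood, with differences of -0.45 ± 0.12, -0.35 ± 0.09 and -0.55 ± 0.11 (adjusted p = 0.0216, 0.00787 and 0.000854). None of the 9 genes passed that test.

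In spleen at day 44 against day 15, 5 of the 16 inhibitor and feedback genes fell and 0 rose, beside 22.9% of all genes, 1894 lower and 1905 higher. B cell and T cell markers were lower too, 8 of 9 and 5 of 8 of them called, and their part in these counts was not tested. Tnip1 (-0.51 ± 0.11) and Tnip2 (-0.22 ± 0.05), which encode partners of A20, and Nfkbie (-0.45 ± 0.09), another IkB gene, were the foremost. Of 20 other target genes 7 fell, with Vcam1 (-0.46 ± 0.09), an adhesion molecule, among them, and 2 rose, with Sod2 (0.40 ± 0.09), the mitochondrial superoxide dismutase. Of 13 subunits and kinases 4 fell, with Relb (-0.35 ± 0.10), and 2 rose, with Rela (0.33 ± 0.09).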

How the data were processed

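RNA of whole spleens and of whole blood, freed of globin transcripts, was hybridised to Illumina bead arrays, per the labels' protocols. Experiment I used Ambion kits, with lithium chloride purification of blood RNA, and experiment II used Qiagen kits with stabilised samples. The authors deposited linear intensity values of 25697 probes, with limma as the tool named in the submitters' processing notes. The deposited intensity values share 1 distribution over the arrays of a tissue (median 82.2 in spleen and 73.4 in blood), so they had been quantile normalised within a tissue. Background correction is not given in the sources used here. Log2 values had been assumed, so log2 was taken first. Precision is limited by the number of arrays, which have no depth. No 2 arrays of a tissue correlated above 0.996.

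Of the probes, 23978 carry 1 gene symbol, 0 carry several and 1719 carry none. Entrez identifiers of 23962 matched the RefSeq gene table (GRCm38.p6). The probe with the highest mean stood for each of 16593 genes. The 9 genes, the 6 pathway lists (106 genes, 95 measured), the 9 marker lists and the tests were chosen with earlier results of these data known. The text names the 9 genes, up to 3 called genes of each pathway list with the smallest adjusted p in a comparison, and the 3 genes closest to each of the 9 by correlation, of which a part is given.

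For each tissue, limma 3.58.1 (R 4.3.3, functions lmFit and eBayes) was run with a term for each of the 4 genotype-day groups and a term for the experiment. Spleen was set against blood by the same model on the difference of the 2 tissues of a mouse, each as log2 minus the array median, which pairs the arrays by the mouse that the titles name. Genotypes and days share no mouse. Correlations used residuals, 100000 two-sided permutations and Benjamini-Hochberg adjustment within a family, of which there were 5 (36 pairs in each tissue, 81 relations with marker lists in each tissue, 9 genes between tissues). Mice are the replicates, and the labels number them separately. The steps were tested on simulated data. Promoter windows of all 9 genes were matched by symbol. The alternatives tried were genes above the median level, every probe, both tissues quantile normalised together, normexp with an offset of 50, no experiment term, experiment by group terms, array weights, a trended and robust eBayes, each experiment alone, removal of arrays with pancreas transcripts, other probes, and no block or a random block of the mouse (statmod 1.5.0).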

Additional observations from a re-analysis of the deposited data

How the results depend on the processing

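The limma results in which 1 of the 9 genes was called gave 261 values under the alternatives. Of these 231 kept their sign and side of the threshold, 26 kept the sign and missed the threshold, and 4 took the other sign. They include all 9 genes in spleen against blood, where 88.6% of all genes were called, so the total says little on genotype or day. Every group held 6 mice of each experiment, so estimates were the same without the experiment term and with experiment by group terms. Testing every probe and the trended and robust eBayes also left the estimates of the brightest probes the same. No sign could change in those settings. Tnfaip2 in mutated blood over both days kept its call in 6 of 12 values. The rise of Il1r2 in mutated spleen passed in all 11 alternatives over both days and in all 11 at day 44, and that of Tnfaip2 in all 13 over both days. The number of the 9 genes called moved with that of all genes in several settings, so the share of all genes stands beside it. In mutated spleen over both days it was 2 in experiment I alone (3.5% of all genes). At day 44 experiment I alone gave 1 (0.313%) and experiment II alone 4 (6.07%), and at day 15 experiment II alone gave 0 (0.0121%, or 2 genes). In spleen at day 44 against day 15 it was 5 with genes above the median level (48% of 8296), 5 with experiment by group terms (24.7%), 1 without the experiment term (10.4%), 0 in experiment II alone (1 gene in all) and 1 without the arrays with pancreas transcripts (5.77%). In mutated blood over both days it was 0 with every probe tested (1.05%), 0 without the experiment term (0.458%), 0 in experiment I alone (0.108%) and 0 in experiment II alone (4.08%), and in experiment II it was 1 at day 15 (2.68%) and 1 for the difference between the days (4.16%). The cause of these moves was not tested. The 4 values with the other sign were those of Tnfaip2 at day 44 against day 15 in spleen on its dimmer probes (-0.048 and -0.070), Ltb in spleen against blood with both tissues normalised together (-0.092), and Il1r2 in spleen against blood in experiment I (0.052). Apart from the 261 values, 2 correlations took the other sign within experiment II, Tnf with Nfkbia in spleen (-0.099) and Ltb with Tnfaip3 in blood (-0.052). For spleen against blood, 9 of the 9 genes passed without the replicate block and 9 with the mouse as a random replicate block (consensus correlation 0.0163), so the pairing changed no call there, and for genotype by tissue 0 passed under either. For genotype and day no paired analysis was possible because these groups share no mouse. The levels of Il6 in both tissues, of Il1r2 in wild type spleen and of Tnf in blood lie close to the median probe, and signal over background limits what those probes can show.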
